A study of Mus musculus with 16 samples.

Results

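Potassium channel subunits were taken as the probe sets whose platform gene symbol is Kcn followed by a letter. This rule gave 89 of the 19572 probe sets with a gene symbol, 1 probe set per gene, and 1 antisense symbol, Kcnq1ot1, was left out. They comprised 26 voltage-gated pore-forming subunits, 10 modulatory alpha subunits, 13 auxiliary subunits of voltage-gated channels, 7 calcium- or sodium-activated pore-forming subunits, 4 auxiliary subunits of calcium-activated channels, 15 inward rectifiers and 14 two-pore-domain subunits. Kcnu1, the sperm channel of the Slo family, was grouped with its calcium- and sodium-activated relatives.

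Potassium channels let potassium leave or enter a cell along its gradient and so set the resting potential, the shape of the action potential and the rate of firing. Voltage-gated channels open on depolarization, calcium-activated channels couple potassium efflux to calcium entry, and inward rectifiers and two-pore-domain channels hold the cell near rest. In olfactory sensory neurons (OSNs), odorant binding opens cyclic nucleotide-gated cation channels and calcium-gated chloride channels, and potassium channels shape the firing that follows and its end.

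All mice carried the S100a5-tauGFP reporter, in which green fluorescent protein marks cells that express S100a5, a calcium-binding protein of OSNs whose expression follows their activity. There were 24 mice of both sexes, 7 to 12 weeks old, kept singly for 40 h in chambers with 3.1 L of clean air per min, and pulses of 10 s came every 20 min from 26 h onward. The pulses were filtered air (vehicle) or citrus accord, a fragrance blend, at 100%. After cell sorting of dissociated olfactory mucosa, the 4 groups were vehicle GFP-positive, vehicle GFP-negative, citrus GFP-positive and citrus GFP-negative, with 4 Clariom S arrays each and cells from 3 mice per array. The assay, called the Kentucky assay, asks which transcripts differ between cells with and without recent activity of the reporter, and whether an odorant changes them. The reporter was common to every group, and cells that do not express S100a5 fall in the GFP-negative gate whatever their type.

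The gate and the tissue were checked against S100a5 and cell markers. S100a5 was higher in GFP-positive cells by 1.91 ± 0.13 (log2, standard error of the model, adjusted p = 8.38e-09) with vehicle and by 1.88 ± 0.13 (adjusted p = 8.64e-09) with citrus. Of 11 markers of mature OSNs, 10 were above background on each of the 16 arrays, so both gates held mature OSN RNA. Background was the 95th percentile of negative-control probe sets, between 8.75 and 9.71 per array on the log2 scale, and control medians were between 4.84 and 5.37. The GFP-negative cells also held RNA of other cells: all 13 myeloid and lymphoid markers were lower in GFP-positive cells in both gate comparisons, with a median log2 difference of -6.21 with vehicle and -6.34 with citrus. Some markers of other cells were above background in GFP-positive cells too. On each GFP-positive array, 2 or 3 of 7 sustentacular and 4 of 8 immature OSN markers were above it. RNA was measured in bulk, so fewer cells of a type and less RNA per cell cannot be told apart in any difference between gates.

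Only subunits were counted here, so whether a smaller share of them than of all probe sets lay above background was not tested. The number above it on all 4 arrays of a group was 14 in vehicle GFP-positive, 13 in vehicle GFP-negative, 15 in citrus GFP-positive and 14 in citrus GFP-negative cells. On all 16 arrays, 13 subunits were above it: the voltage-gated subunits Kcna2, Kcna5, Kcnc4, Kcnh3 and Kcnh4, the modulatory Kcns3, the auxiliary Kcnab2 and Kcnip4, the calcium-activated Kcnn1 and Kcnn2, their relatives' auxiliary subunits Kcnmb2 and Kcnmb3, and the two-pore-domain Kcnk10. No inward rectifier was above background on all 16 arrays, and Kcnj2 was so on 6. Another 70 subunits were above background on no array, and 46 of those lay under the lowest negative-control median everywhere, so their level cannot be told from background.

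The promoter sequence is shown for 3 subunits the gate comparisons turn on: Kcnmb3 and Kcnrg, higher in GFP-positive cells, and Kcnn4, lower there. Each is the 250 bases before the annotated transcription start in RefSeq (build GRCm38.p6), 5′ to 3′ on the gene's own strand. Capitals mark matches, on either strand, to a homeodomain core (TAATTA), an Olf/Ebf core (CCCNNGGG) or part of the cyclic AMP response element (TGACG).
Kcnmb3 (chr3:32491970-32492219, minus strand): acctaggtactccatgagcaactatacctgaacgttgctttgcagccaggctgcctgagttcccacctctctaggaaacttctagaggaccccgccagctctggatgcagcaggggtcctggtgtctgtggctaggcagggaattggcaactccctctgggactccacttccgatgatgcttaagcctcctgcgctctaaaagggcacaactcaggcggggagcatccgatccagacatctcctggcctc
Kcnrg (chr14:61607207-61607456, plus strand): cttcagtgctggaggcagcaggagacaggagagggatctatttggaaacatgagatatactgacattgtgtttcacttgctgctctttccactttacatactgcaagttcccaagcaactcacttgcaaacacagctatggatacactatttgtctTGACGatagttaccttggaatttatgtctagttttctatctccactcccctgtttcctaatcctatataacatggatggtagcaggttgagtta
Kcnn4 (chr7:24370013-24370262, plus strand): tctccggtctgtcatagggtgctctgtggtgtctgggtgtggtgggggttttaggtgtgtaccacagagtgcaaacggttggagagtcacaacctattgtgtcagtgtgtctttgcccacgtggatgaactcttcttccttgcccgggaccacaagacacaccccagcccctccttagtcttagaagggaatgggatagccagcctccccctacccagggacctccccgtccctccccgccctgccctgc
Only the Kcnrg window held a match, to TGACG. Windows were given for 68 of the 89 subunits, 93 windows in all, and 0 of them held TAATTA, against 4.84% of all 32851 windows of the same length. CCCNNGGG was in 14.0% of the subunits' windows and 11.8% of all windows, and TGACG in 16.1% and 17.8%. Of the 18 subunits called in either gate comparison, 13 had a window. Kcna1, Kcng1, Kcnh3, Kcnn2 and Kcnk6 had none and could not be searched. Of the subunits higher in GFP-positive cells, Kcnab2, Kcnn1 and Kcnrg had a TGACG match and Kcnh8 a CCCNNGGG match. Of the lower ones Kcnip3 had a CCCNNGGG match. TGACG was in 25% of the 12 windows of higher subunits and in 0 of the 7 windows of lower ones. CCCNNGGG was in 8.33% and 14.3%. A match describes the window only, and no base of the printed windows belonged to more than 1 motif.

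With vehicle, 5 subunits had a higher and 3 a lower value in GFP-positive than in GFP-negative cells at an adjusted p under 0.05, and 81 were not called. Over all probe sets tested, 9.05% were called higher and 9.97% lower, so 5 and 3 of 89 are no larger a share than that of genes in general. With citrus, 11 (12.4%) were higher, 6 (6.74%) lower and 72 not called, beside 7.44% and 10.8% of all probe sets. The median log2 difference of the subunits was 0.07 with vehicle, where that of all probe sets was 0.11, and 0.16 with citrus, where it was 0.13. Kcnmb3, Kcnn2, Kcng1 and Kcnrg were higher in both comparisons, which is 4 of 5 and 4 of 11 of the higher calls. Kcnn4, Kcnk1 and Kcnip3 were lower in both, 3 of 3 and 3 of 6 of the lower calls, and 0 subunits were called in opposite directions. These splits depend on how arrays are scaled. Centring arrays on the median of all probe sets gave 24 higher and 3 lower with vehicle and 46 and 4 with citrus, and centring on mature OSN markers gave 3 and 7, and 4 and 12. All probe sets shifted likewise, to 36.2% higher and 7.95% lower with vehicle and 46.6% and 8.74% with citrus under the first, and to 2.67% and 15.9%, and 2.74% and 17%, under the second. Under the latter the subunits' median turned to -0.23 with vehicle and -0.18 with citrus, and that of all probe sets to -0.19 and -0.21.

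**Figure D1:**
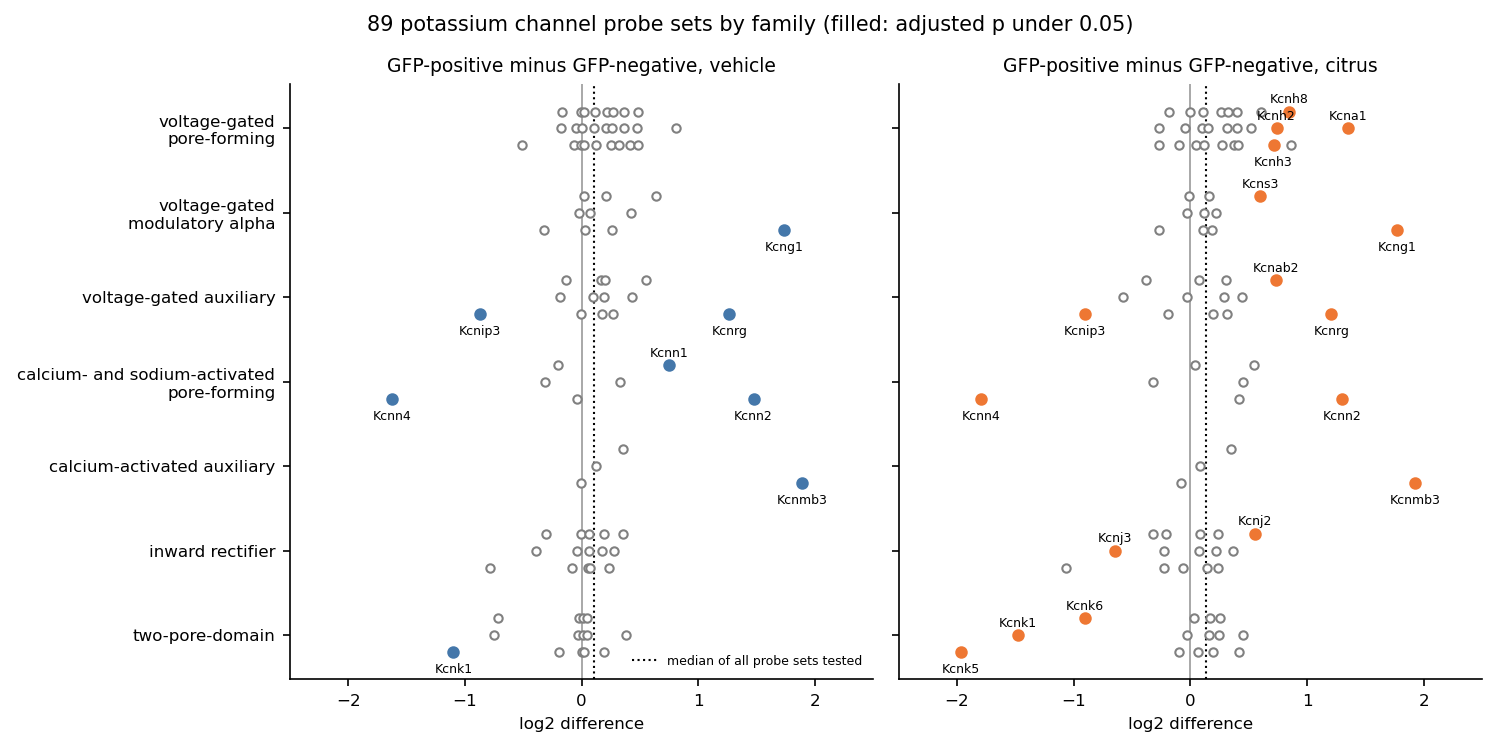
Log2 difference, GFP-positive minus GFP-negative, of the 89 potassium channel probe sets by family (rows), with vehicle on the left and citrus on the right; filled points passed an adjusted p of 0.05 and carry their symbol, and the dotted line is the median of all 19572 probe sets (0.11 and 0.13). Kcnmb3 lies at 1.89 and 1.92 and Kcnn4 at -1.62 and -1.79, Kcnk5 with citrus lies lower at -1.97, and 13 of 15 inward rectifiers with citrus and all 15 with vehicle were not called.

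Calcium-activated channels held subunits called in both directions. Of the 7 pore-forming subunits, 2 were higher and 1 lower with vehicle, and 1 was higher and 1 lower with citrus. Of the 4 auxiliary Kcnmb subunits, 1 was higher in each, Kcnmb3, which encodes a beta subunit that changes the gating of large-conductance calcium-activated channels. With vehicle, Kcnmb3 read 13.58, 13.07, 13.58 and 13.54 in GFP-positive cells of replicates 1 to 4, and 11.64, 11.15, 12.17 and 11.24 in GFP-negative cells (log2 values here and below). With citrus it read 14.84, 13.76, 13.66 and 14.36 in GFP-positive and 13.21, 12.22, 11.51 and 11.99 in GFP-negative cells. In both stimuli every GFP-positive array lay above every GFP-negative one, and all 16 values were above background. The difference was 1.89 ± 0.33 (adjusted p = 0.000403) with vehicle and 1.92 ± 0.33 (adjusted p = 0.000286) with citrus. RefSeq annotates Kcnmb3 as overlapping Pik3ca, whose probe set differed by -0.03 (adjusted p = 0.931) and 0.16 (adjusted p = 0.535). Kcnmb2, another such beta subunit, was above background on every array and higher in the GFP-positive cells of 4 of 4 pools with vehicle and 3 of 4 with citrus, but its differences of 0.36 (adjusted p = 0.123) and 0.35 (adjusted p = 0.136) were not called.

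Kcnn2 encodes a small-conductance calcium-activated channel, a class that contributes to the afterhyperpolarization of many neurons. With vehicle it read 12.10, 11.86, 12.12 and 12.77 in GFP-positive cells and 10.88, 10.34, 10.63 and 11.10 in GFP-negative cells. With citrus the values were 12.85, 12.86, 12.69 and 12.75 against 11.53, 11.95, 11.14 and 11.31. The gates did not overlap in either stimulus, and the citrus GFP-positive arrays spanned only 12.69 to 12.86. Kcnn2 was higher in GFP-positive cells by 1.47 ± 0.21 (adjusted p = 6.50e-05) with vehicle and by 1.30 ± 0.21 (adjusted p = 0.000203) with citrus.

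Kcnn1, a second small-conductance subunit, was higher in GFP-positive cells in each of the 8 pools. Its GFP-positive and GFP-negative values were 11.87, 11.38, 11.69 and 11.08 against 11.18, 10.36, 10.87 and 10.61 with vehicle. With citrus they were 11.81, 11.52, 12.27 and 11.60 against 11.35, 10.84, 11.78 and 11.07. The gates overlapped in both stimuli across pools, since replicates with high GFP-negative values also had high GFP-positive ones. The difference passed with vehicle (0.75 ± 0.24, adjusted p = 0.0365) and not with citrus (0.54 ± 0.24, adjusted p = 0.135). With the pool as a block the citrus difference passed too (adjusted p = 0.0153). The vehicle call was lost without any 1 of the vehicle pools, with adjusted p of 0.0539, 0.145, 0.113 and 0.0586 without replicates 1 to 4, without citrus replicate 1 (0.0509), and when arrays were centred on the markers of mature OSNs (0.239). The difference between the stimuli was itself not called (-0.21, 95% interval -0.93 to 0.51, adjusted p = 0.999).

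Kcnn4 ran the other way. It encodes the intermediate-conductance calcium-activated channel, which is best known from blood cells, lymphocytes and secretory epithelia. Its values were 3.98, 4.50, 3.82 and 3.63 in GFP-positive and 5.02, 5.66, 5.95 and 5.79 in GFP-negative cells with vehicle. With citrus they were 4.27, 4.11, 4.62 and 4.25 against 5.70, 5.72, 7.03 and 5.95. The gates did not overlap, yet no value was above background, so the level in either gate is a bound and no fold is given. The log2 signal was lower in GFP-positive cells by -1.62 ± 0.28 (adjusted p = 0.000352) and -1.79 ± 0.28 (adjusted p = 0.000111). Kcnmb3, Kcnn2 and Kcnn4 were called in both comparisons under every alternative in which they were tested.

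**Figure D2:**
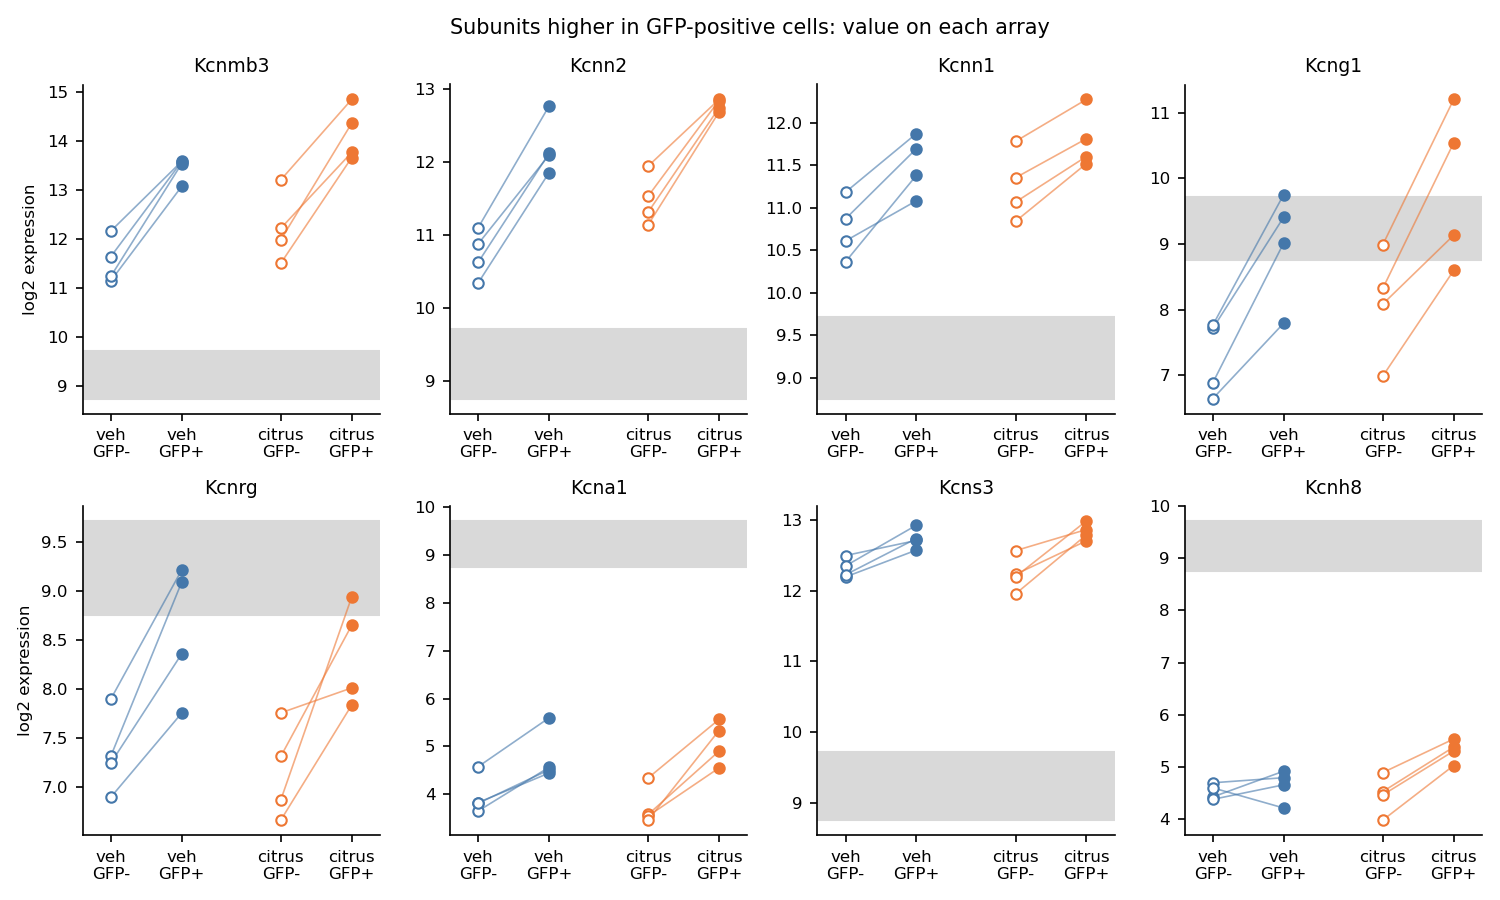
Log2 expression of 8 subunits higher in GFP-positive cells, on each of 16 arrays; open circles are GFP-negative and filled circles GFP-positive arrays, lines join the arrays of one stimulus and replicate number, and the grey band spans the negative-control 95th percentile over arrays (8.75 to 9.71). Within each stimulus Kcnmb3 and Kcnn2 have no overlap between gates, Kcng1 crosses the band, and Kcna1 and Kcnh8 lie wholly under it.

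Among modulatory alpha subunits, which form no channel alone and change the properties of the pore-forming subunits they join, 1 of 10 was higher with vehicle and 2 of 10 with citrus, and none was lower. Kcng1 read 9.02, 9.41, 9.75 and 7.80 in GFP-positive and 6.89, 7.72, 7.77 and 6.65 in GFP-negative cells with vehicle. With citrus it read 11.20, 8.60, 9.13 and 10.54 against 8.99, 6.99, 8.09 and 8.33. Every GFP-positive vehicle array lay above the GFP-negative ones, whereas with citrus the gates overlapped although each pool was higher in its GFP-positive cells. Kcng1 varied widely between pools and was above background on 7 of 16 arrays. The differences were 1.74 ± 0.54 (adjusted p = 0.0317) and 1.77 ± 0.54 (adjusted p = 0.0291). The vehicle call was lost without vehicle replicate 1 (adjusted p = 0.111), 2 (0.0989) or 3 (0.0929), and the citrus call without citrus replicate 1 (0.0515) or 4 (0.129). With a trended and robust prior the adjusted p were 0.0552 and 0.0534, and under mature OSN centring 0.0858 and 0.0854. With only the groups compared in the model the citrus call was lost too (0.0566).

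Kcns3, another modulatory subunit, was above background on all 16 arrays. With vehicle its GFP-positive values were 12.72, 12.58, 12.93 and 12.74, and its GFP-negative values 12.50, 12.20, 12.35 and 12.23. With citrus they were 12.87, 12.79, 12.71 and 12.99 against 12.57, 11.96, 12.23 and 12.20. No overlap between gates was seen in either stimulus. The difference was called with citrus (0.60 ± 0.15, adjusted p = 0.00742) and not with vehicle (0.42 ± 0.15, adjusted p = 0.0567). The citrus call was lost without citrus replicate 2 (0.0510) or 4 (0.0662), and under mature OSN centring (0.296). The vehicle difference passed with the trended and robust prior (limma adjusted p = 0.0354), the filter on low values (0.0263) and median centring (0.00232), and under no other alternative.

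Of the 13 auxiliary subunits of voltage-gated channels, 1 was higher and 1 lower with vehicle, and 2 were higher and 1 lower with citrus. Kcnrg encodes a soluble protein that resembles the assembly domain of voltage-gated subunits and can hinder their assembly. It read 9.21, 7.75, 9.09 and 8.36 against 7.90, 6.89, 7.31 and 7.24 with vehicle, GFP-positive first. With citrus the values were 8.65, 8.01, 8.94 and 7.83 against 7.31, 7.75, 6.87 and 6.66. The gates did not overlap with citrus, and with vehicle GFP-positive replicate 2 (7.75) lay below GFP-negative replicate 1 (7.90), the pool order being kept. Kcnrg was above background on 2 arrays only. Its differences were 1.27 ± 0.34 (adjusted p = 0.0125) and 1.21 ± 0.34 (adjusted p = 0.0162), and they missed the threshold without vehicle replicate 3 (0.0770) and without citrus replicate 1 (0.0621) or 3 (0.139). RefSeq annotates Trim13 and Dleu2 as overlapping Kcnrg. Trim13 moved alongside, by 0.79 (adjusted p = 0.0660) with vehicle and 0.90 (adjusted p = 0.0360) with citrus, and its part in the Kcnrg signal was not tested.

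Kcnab2, a cytoplasmic beta subunit of voltage-gated channels, was called higher with citrus only. Its values there were 15.60, 15.31, 15.48 and 15.19 in GFP-positive and 14.85, 14.89, 14.56 and 14.33 in GFP-negative cells, without overlap. With vehicle they were 15.62, 14.73, 15.12 and 15.21 against 15.07, 14.69, 14.72 and 14.47, with overlap. The differences were 0.74 ± 0.19 (adjusted p = 0.0115) with citrus and 0.43 ± 0.19 (adjusted p = 0.137) with vehicle. The citrus call was lost without citrus replicate 3 (0.0743) or 4 (0.0507) and under mature OSN centring (0.115). Nphp4, which RefSeq places across Kcnab2, was higher by 0.65 (adjusted p = 0.00583) with citrus and 0.48 (adjusted p = 0.0374) with vehicle, and whether it adds to the Kcnab2 signal was not tested.

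Kcnip3, a calcium sensor that binds voltage-gated channels and also DNA, was lower in GFP-positive cells. With vehicle it read 4.24, 4.12, 4.48 and 4.34 in GFP-positive and 4.61, 5.76, 5.40 and 4.86 in GFP-negative cells. With citrus it read 4.20, 4.24, 4.36 and 4.68 against 4.93, 5.17, 5.71 and 5.29. No overlap between gates was seen, and no value was above background. The differences were -0.87 ± 0.23 (adjusted p = 0.0112) and -0.90 ± 0.23 (adjusted p = 0.00785). They missed the threshold without vehicle replicate 2 (0.105) and without citrus replicate 3 (0.0658). Its relative Kcnip4 was above background on every array, and its differences of -0.18 (adjusted p = 0.504) and 0.29 (adjusted p = 0.267) were not called.

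No voltage-gated pore-forming subunit was called with vehicle, out of 26. Without adjustment, limma gave 4 up and 1 down (p under 0.05), beside 3486 up and 2635 down of all 19572 probe sets. With citrus, 4 were higher and none lower: Kcna1, Kcnh2, Kcnh3 and Kcnh8. Kcna1, a low-threshold subunit of axons that restrains firing, read 5.57, 4.90, 4.55 and 5.33 in citrus GFP-positive and 4.34, 3.58, 3.55 and 3.46 in citrus GFP-negative cells, without overlap. With vehicle it read 5.60, 4.44, 4.56 and 4.51 against 4.58, 3.83, 3.65 and 3.81, and GFP-negative replicate 1 lay above 3 GFP-positive arrays. Replicate 1 was the highest of its group in all 4 groups. The difference was 1.36 ± 0.29 (adjusted p = 0.00252) with citrus, called in every alternative in which it was tested, and 0.81 ± 0.29 (adjusted p = 0.0621) with vehicle. With the pool as a block the vehicle difference passed (adjusted p = 0.00432). It also passed with array weights (limma adjusted p = 0.0471), quantile normalization (0.0453) and median centring (0.00935), and without citrus replicate 1 (0.0432). Under the other alternatives it was not called. No value of Kcna1 was above background.

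The Kcnh genes encode the ether-a-go-go family, whose erg member Kcnh2 repolarizes heart muscle and whose elk members Kcnh3, Kcnh4 and Kcnh8 are mostly neuronal. Kcnh2 read 10.09, 10.21, 10.45 and 10.37 in citrus GFP-positive and 9.50, 9.81, 9.38 and 9.48 in citrus GFP-negative cells, a difference of 0.74 ± 0.20 (adjusted p = 0.0129). Kcnh3 read 10.75, 10.32, 10.27 and 10.63 against 9.42 to 10.25, a difference of 0.71 ± 0.22 (adjusted p = 0.0286). The gates did not overlap for either gene with citrus, and they did with vehicle, where the differences were 0.25 (adjusted p = 0.414) and 0.48 (adjusted p = 0.138). Both citrus calls were lost without citrus replicate 3 (Kcnh2 0.100, Kcnh3 0.0927) or 4 (0.0825 and 0.127), that of Kcnh3 also without replicate 2 (0.0832), and both under mature OSN centring (0.197 and 0.272).

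Kcnh8 was called between gates with citrus and not with vehicle, at signals below background. Citrus GFP-positive values were 5.54, 5.03, 5.38 and 5.31, and citrus GFP-negative values 4.90, 3.99, 4.53 and 4.47. Vehicle values were 4.92, 4.66, 4.80 and 4.22 against 4.43, 4.38, 4.70 and 4.60. All citrus GFP-positive arrays thus lay above all other arrays. The gate difference was 0.84 ± 0.20 (adjusted p = 0.00443) with citrus, lost only under mature OSN centring (0.121), and 0.12 ± 0.20 (adjusted p = 0.723) with vehicle. Kcnc4, a fast voltage-gated channel, and Kcnh4 were above background on every array and not called, with differences of 0.02 (adjusted p = 0.948) and 0.02 (adjusted p = 0.965) with vehicle and of 0.41 (adjusted p = 0.133) and 0.52 (adjusted p = 0.169) with citrus.

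Inward rectifiers had 0 calls with vehicle among 15 (limma, and also 0 before adjustment at p under 0.05), and 1 higher and 1 lower with citrus. Kcnj2, a strong inward rectifier that holds cells near rest, read 9.39, 9.39, 9.17 and 9.04 in citrus GFP-positive and 8.74, 8.85, 8.75 and 8.42 in citrus GFP-negative cells, without overlap. The difference was 0.56 ± 0.17 (adjusted p = 0.0280), and 0.28 ± 0.17 (adjusted p = 0.278) with vehicle, where the gates overlapped. Leaving out any 1 citrus pool ended the call of Kcnj2 (adjusted p 0.0998, 0.0785, 0.0708 and 0.0870 for replicates 1 to 4), as did centring on mature OSN markers (0.415). Kcnj3, a subunit of G protein-gated rectifiers, read 2.97, 2.93, 2.45 and 2.72 against 3.31 to 3.62, below every control median. Its difference of -0.65 ± 0.22 (adjusted p = 0.0463) was lost with the pool as a block (0.0815), without any 1 citrus pool (0.0718, 0.0874, 0.169 and 0.202), without vehicle replicate 1 (0.0599) or 3 (0.0543), and with arrays centred on the median (0.202). Kcnj13, an epithelial rectifier, was not called (-0.79, adjusted p = 0.215, and -1.06, adjusted p = 0.0926) but was lower with the pool as a block (adjusted p = 0.0283 and 0.00569).

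Two-pore-domain subunits, which carry leak current, had 1 lower call of 14 with vehicle, 3 with citrus and no higher call in either. Kcnk1, Kcnk5 and Kcnk6, the subunits called, were above background on no array, so their levels in either gate are bounds and no fold is given. Kcnk1 read 5.66, 5.94, 6.37 and 6.01 in vehicle GFP-positive and 6.36, 7.11, 7.30 and 7.60 in vehicle GFP-negative cells. With citrus the values were 6.11, 6.23, 6.27 and 6.11 against 6.80, 8.35, 7.92 and 7.55. With citrus the gates did not overlap, and with vehicle they met only where GFP-positive replicate 3 reached the level of GFP-negative replicate 1. The difference was -1.10 ± 0.29 (adjusted p = 0.0115), lost without vehicle replicate 2 (0.0611) or 4 (0.0829), and -1.48 ± 0.29 (adjusted p = 0.000987) with citrus, called in every alternative in which it was tested.

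Kcnk5, a channel of kidney and other epithelia that senses extracellular acid, was called with citrus. It read 3.70, 2.62, 3.50 and 3.46 in citrus GFP-positive and 3.92, 5.28, 5.83 and 6.11 in citrus GFP-negative cells. With vehicle the values were 3.13, 3.77, 4.05 and 3.07 against 3.50, 4.08, 4.62 and 4.81. The gates did not overlap with citrus, but GFP-negative replicate 1 lay close to the GFP-positive arrays in both stimuli. The difference was -1.97 ± 0.41 (adjusted p = 0.00174) with citrus and -0.75 ± 0.41 (adjusted p = 0.225) with vehicle. Kcnk6 was lower with citrus (-0.90 ± 0.27, adjusted p = 0.0268), but not without citrus replicate 3 (0.0556) or 4 (0.160), with only the groups compared in the model (0.0570) or with arrays centred on the median (0.0688). With vehicle its gates did not overlap either (-0.72 ± 0.27, adjusted p = 0.0768), and the pool as a block gave an adjusted p of 0.0325.

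Kcnk9 and Kcnk10, an acid-sensitive and a stretch-sensitive leak channel, were not called. Kcnk9 lay between 2.91 and 3.97 on all 16 arrays, below every control median, with differences of 0.04 (adjusted p = 0.909) and 0.20 (adjusted p = 0.521). Kcnk10 was above background on all arrays, with differences of 0.02 (adjusted p = 0.977) and -0.10 (adjusted p = 0.838), and was lower in GFP-positive cells in 3 of 4 citrus pools.

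The pool as a block brought the counts to 7 higher and 6 lower with vehicle and to 13 higher and 6 lower with citrus, and the shares of all probe sets to 11% and 10.7% with vehicle and 9.52% and 11.5% with citrus. Beside the subunits already named, it called Kcna3 lower (-0.51, adjusted p = 0.0347) and Kcnq1 higher (0.48, adjusted p = 0.0447) with vehicle. It also called Kcna6 higher with citrus (0.86, adjusted p = 0.00452). Kcna3 is the main voltage-gated channel of lymphocytes, Kcnq1 a slow repolarizing channel of heart and epithelia, and Kcna6 a neuronal relative of Kcna1.

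Markers of several other cell types were also lower in GFP-positive cells, and markers of others were not. The mean log2 level of the 13 myeloid and lymphoid markers was 10.79 to 12.70 on GFP-negative and 5.26 to 6.01 on GFP-positive arrays, where 0 or 1 of them was above background. All 13 were lower in each comparison. Of 7 microvillous cell markers, 6 were lower with vehicle and 7 with citrus, and of 7 sustentacular markers 1 and 2. Of 5 Bowman gland markers, 2 and 3 were lower, of 8 immature OSN markers 5 and 5, of 5 progenitor markers 4 and 4, and of 2 erythroid markers 2 and 2. Of 5 endothelial markers 1 and 1 were lower, of 3 markers of ensheathing glia 1 and 0, and of 3 horizontal basal and 4 stromal markers none was called. Of 3 respiratory ciliated markers 1 was higher in each comparison, with a median difference of 0.55 and 0.54. Among GFP-negative arrays, replicate 1 had the lowest sustentacular level in both stimuli, 7.05 with vehicle and 8.91 with citrus, where the others were at or above 9.94. Microvillous markers were also lowest there, at 6.51 and 7.18, and the myeloid and lymphoid list with citrus (10.79) but not with vehicle (11.68, against 11.53 on replicate 3). So were the Bowman gland (7.90 with vehicle, 9.09 with citrus), progenitor (6.27 and 6.69), stromal (3.92 and 4.57) and endothelial lists (3.57 and 3.79). The immature OSN, erythroid, ensheathing glia and horizontal basal lists were lowest there with vehicle but not with citrus. The respiratory ciliated and mature OSN lists were lowest there in neither stimulus. Kcnk1, Kcnk5, Kcnip3 and Kcnn4 had their lowest GFP-negative value on replicate 1 in both stimuli, as did Kcnj13 (4.95 and 5.62), which was not called. Kcnk6 and Kcnj3 did not: Kcnk6 was lowest on vehicle replicate 3 (4.43) and citrus replicate 2 (4.48), and Kcnj3 on vehicle replicate 2 (2.69) and citrus replicate 3 (3.31). The part of other cells in these differences was not tested.

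**Figure D3:**
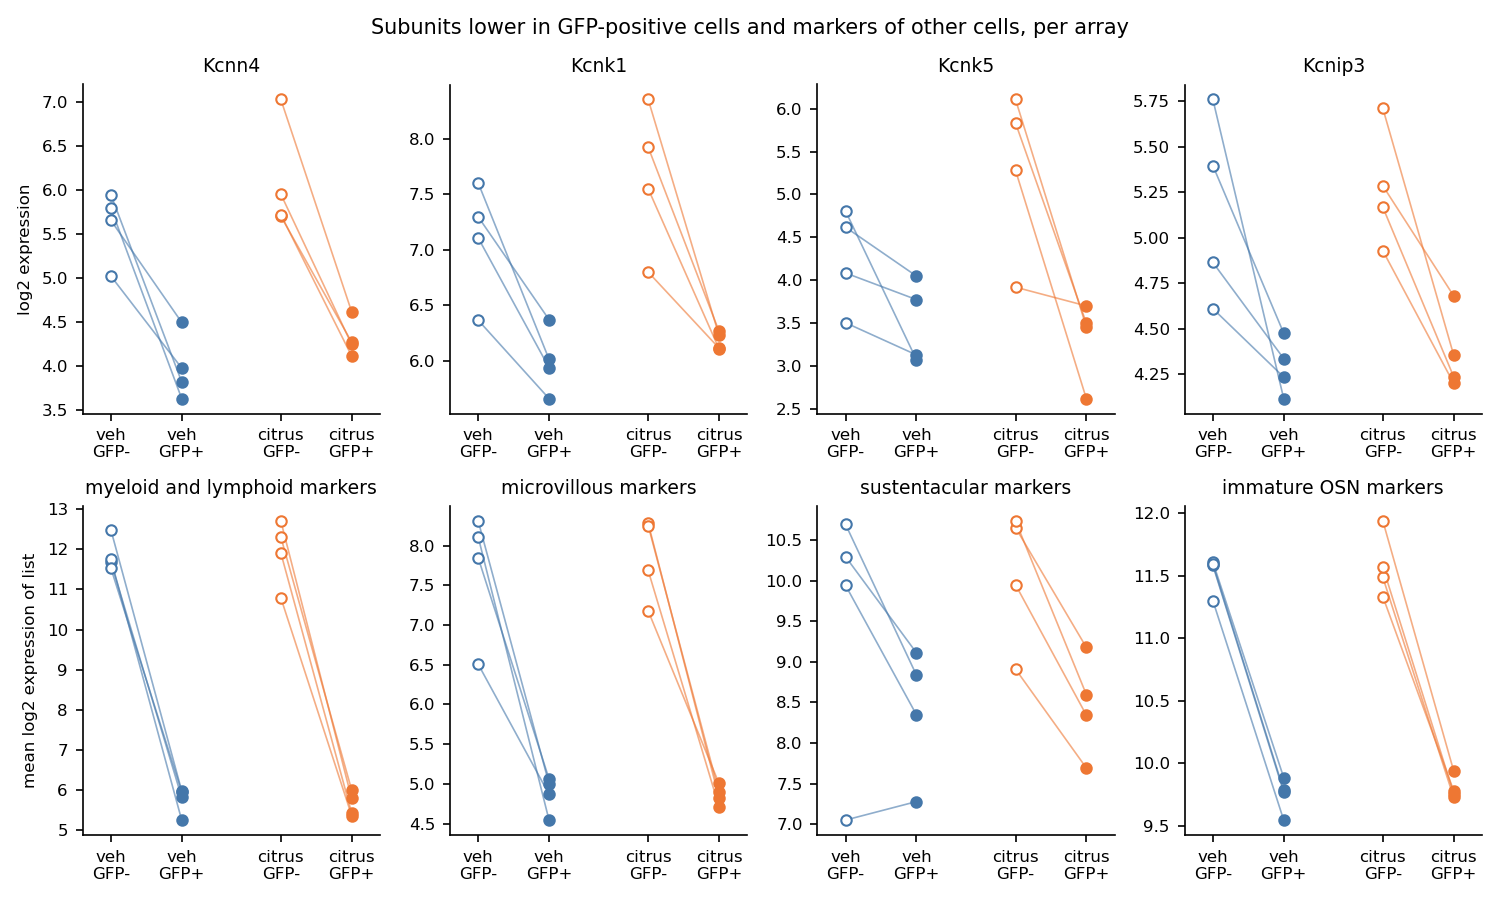
Top, log2 expression of 4 subunits lower in GFP-positive cells on each array; bottom, the mean log2 expression of 4 marker lists on the same arrays. Open circles are GFP-negative and filled circles GFP-positive arrays, and lines join arrays of one stimulus and replicate number; replicate 1 is the lowest GFP-negative array of Kcnk1, Kcnk5 and the sustentacular list (7.05 with vehicle, 8.91 with citrus).

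The subunits higher in GFP-positive cells were set beside mature OSN markers, of which 3 of 11 were higher with vehicle and 2 with citrus. The median difference of that list was 0.27 and 0.30 (-0.03 and -0.03 once arrays are centred on the list itself), with mean levels of 16.11 to 16.35 on GFP-positive and 15.82 to 16.12 on GFP-negative arrays. Kcnmb3 and Kcnn2 remained higher after arrays were centred on these markers, by 1.59 and 1.18 with vehicle and by 1.59 and 0.96 with citrus. Kcnrg (0.97 and 0.87) and Kcna1 with citrus (1.02) remained called as well. Kcng1 in both comparisons, Kcnn1 with vehicle, and Kcnab2, Kcns3, Kcnh2, Kcnh3, Kcnh8 and Kcnj2 with citrus did not remain called. Kcng1 still differed by 1.44 with vehicle and 1.43 with citrus (limma adjusted p = 0.0858 and 0.0854). The others were still higher in GFP-positive cells, by 0.22 to 0.51.

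Citrus was then compared with vehicle within each gate, which asks whether the odorant changed the subunits' level. In GFP-positive cells 0 of 89 subunits were called, and limma without adjustment gave 4 up and 1 down (p under 0.05). In GFP-negative cells 0 were called, with 3 higher and 2 lower unadjusted. Over all probe sets, GFP-positive cells had 0.0204% called up and 0% down, and GFP-negative cells 0.0102% and 0.00511%. Without adjustment, limma gave 404 up and 390 down of all 19572 probe sets in GFP-positive cells (p under 0.05). In GFP-negative cells it gave 581 and 570. The median difference of the subunits was -0.01 and -0.06, and that of all probe sets 0.01 and 0.01.

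Kcnn2 had the smallest unadjusted p of the subunits in GFP-negative cells. Its citrus GFP-negative values, 11.14 to 11.95, all lay above its vehicle GFP-negative values, 10.34 to 11.10. The difference was 0.75 ± 0.21 (95% interval 0.30 to 1.20, limma adjusted p = 0.773). In GFP-positive cells it was 0.57 ± 0.21 (0.12 to 1.03, limma adjusted p = 0.999), and vehicle replicate 4 (12.77) lay among the citrus arrays. Kcnmb3 differed by 0.71 ± 0.33 in GFP-positive cells (0.02 to 1.40, limma adjusted p = 0.999) without overlap, and by 0.68 ± 0.33 in GFP-negative cells (-0.01 to 1.37, limma adjusted p = 0.847) with overlap. S100a5 differed in the same direction, by 0.57 (limma adjusted p = 0.656) and 0.61 (limma adjusted p = 0.442), with citrus and vehicle arrays apart in both gates. None of these passed the adjustment over all probe sets.

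The other subunits with an unadjusted p under 0.05 were below background. Kcnh8 was higher with citrus in GFP-positive cells by 0.67 ± 0.20 (0.25 to 1.08, limma adjusted p = 0.999), every citrus array above every vehicle array. In GFP-negative cells it differed by -0.06 ± 0.20. Kcns2, a modulatory subunit, differed by 0.46 ± 0.17 in GFP-positive cells (limma adjusted p = 0.999). Kcnk5 differed by 1.03 ± 0.41 (limma adjusted p = 0.824) and Kcna10 by -0.36 ± 0.15 (limma adjusted p = 0.824) in GFP-negative cells, with overlap of the stimuli. Of those outside the rule for named subunits, named after their values were seen, Kcnmb1, a further beta subunit, differed by -0.49 ± 0.18 in GFP-positive cells (limma adjusted p = 0.999), with every citrus array below every vehicle array. In GFP-negative cells Kcnab1, a beta subunit of voltage-gated channels, differed by 0.49 ± 0.22 (limma adjusted p = 0.837) without overlap, and the two-pore-domain Kcnk13 by -0.28 ± 0.13 (limma adjusted p = 0.845) with overlap.

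**Figure D4:**
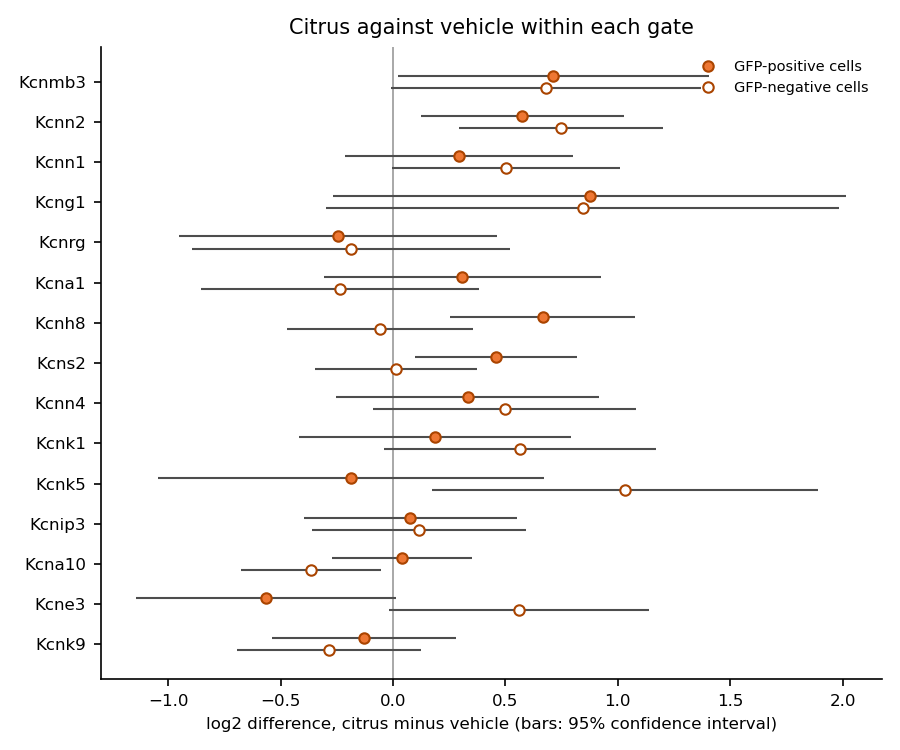
Log2 difference, citrus minus vehicle, of 15 subunits in GFP-positive cells (filled) and GFP-negative cells (open), with 95% confidence intervals of the model over 16 arrays. The intervals of Kcnn2 lie above 0 in both gates (0.12 to 1.03 and 0.30 to 1.20), that of Kcnh8 only in GFP-positive cells (0.25 to 1.08), and 0 of 89 subunits passed the adjustment in either gate.

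Whether citrus changed the gate difference itself was tested as the difference of the 2 gate differences. No subunit was called (limma, with 1 up and 2 down at p under 0.05 before adjustment), and 0% of all probe sets were called in either direction. Before adjustment, 376 of all 19572 probe sets were up and 346 down. The subunits called in only 1 stimulus were therefore not shown to differ between stimuli. For Kcnmb3 the difference was 0.03 (95% interval -0.94 to 1.01), for Kcnn2 -0.17 (-0.81 to 0.47) and for Kcng1 0.03 (-1.58 to 1.65), intervals that still allow sizeable changes. The smallest unadjusted p was that of Kcne3, a single-span auxiliary subunit of voltage-gated channels, at -1.13 ± 0.39 (limma adjusted p = 0.999). Kcne3 was higher in GFP-positive cells in 4 of 4 vehicle pools and 0 of 4 citrus pools, with all its values, 2.59 to 4.08, below every control median. Kcnh8 followed at 0.72 ± 0.28 (limma adjusted p = 0.999) and Kcnk5 at -1.22 ± 0.58 (limma adjusted p = 0.999).

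Partners of these channels and other genes of excitability were counted for context. Of 20 measured partner proteins, 3 were higher with vehicle (Ank2, Dlg2 and Dlg4, scaffold proteins of the membrane). With citrus 3 were higher (Amigo1, Dlg1 and Dlg2), and none was lower in either comparison. Mean levels of Ank2 with vehicle (9.42 in GFP-positive, 8.89 in GFP-negative cells) lay within the range of background, 8.75 to 9.71. Those of Amigo1 with citrus (9.37 and 8.61) lay within or under it. Over all probe sets, 9.05% were higher and 9.97% lower with vehicle, and 7.44% and 10.8% with citrus. Of 17 alternatives, 14 kept the call of Ank2, 9 that of Dlg4, 14 that of Amigo1 and 12 that of Dlg1. Under mature OSN centring the partners split into 1 higher and 3 lower with vehicle and 0 and 0 with citrus. Of all probe sets, 2.67% were then higher and 15.9% lower with vehicle, and 2.74% and 17% with citrus. Under median centring the partners split into 10 and 0, and 13 and 0, where 36.2% and 46.6% of all probe sets were called higher. Dlg2, a scaffold that clusters voltage-gated channels such as Kcna1, differed by 0.93 ± 0.21 (adjusted p = 0.00399) and 0.82 ± 0.21 (adjusted p = 0.00989), the latter lost without citrus replicate 2 (adjusted p up to 0.136 over the alternatives) and under mature OSN centring. Of 35 measured channels and pumps, 4 were higher and 2 lower with vehicle, and 3 higher and 1 lower with citrus; the splits were 1 and 5, and 1 and 2, under mature OSN centring and 11 and 1, and 19 and 1, under median centring. Scn4b, an auxiliary subunit of sodium channels, was higher by 1.00 ± 0.18 (adjusted p = 0.000600) and 1.16 ± 0.18 (adjusted p = 0.000113). Ano2, the calcium-gated chloride channel of OSNs, was higher by 0.64 (adjusted p = 0.00129) and 0.72 (adjusted p = 0.000392). Both calls of Ano2 were lost under mature OSN centring, a list that holds it. Atp1b3, a beta subunit of the sodium pump, was lower by -0.78 (adjusted p = 0.00509) and -0.85 (adjusted p = 0.00220), and the vehicle call was lost without vehicle replicate 4 (0.0561).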

How the data were processed

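The deposited table held log2 values of 28846 probe sets on 16 Clariom S arrays. The submitters' processing notes name Affymetrix Expression Console, without a version or build. The label of 1 array names SST-RMA, whose signal transformation can stretch the scale, so log2 differences may not be log2 ratios of mRNA. No further scaling was applied in the main test, and 0 columns belonged to other samples. Platform annotation gave 1 symbol to 19572 probe sets, which were tested, several to 0 and none to 2634, beside 6640 control probe sets, 5222 of them negative controls. All 89 potassium channel symbols matched RefSeq by gene identifier.

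Tests used limma 3.58.1 (R 4.3.3) on all 16 arrays with a mean for each group, empirical Bayes and two-sided p-values adjusted by Benjamini-Hochberg over all probe sets tested (threshold 0.05). Errors written ± are standard errors of the model and intervals are 95%. Arrays have no read depth, and the number of arrays limits the precision. Named subunits were those called between gates, the 3 with the smallest p in each comparison with no calls, the 8 with the highest mean in GFP-positive cells, and Kcnmb3, Kcng1, Kcnn2 and Kcnk9. Kcna3, Kcna6, Kcnj13 and Kcnq1, called with the pool as a block, and Kcnmb1, Kcnab1 and Kcnk13 were named after their values were seen. The subunits, gene lists and tests were chosen with earlier results of these data known.

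GFP-positive and GFP-negative arrays of one stimulus and number were taken as cells of the same 3 mice, an inference from 24 mice making 8 pools of 3. Their deviations from group means correlated across probe sets at 0.075 to 0.275 (median 0.19), and the 24 other pairs of arrays at -0.17 to 0.07 (median -0.06). Citrus and vehicle arrays of one number and gate, from different pools, had a median of 0.18, and those of other numbers -0.07. These correlations therefore cannot tell shared mice from anything else that arrays of one number share. The main model had no pool term, and results that a block for the pool (stimulus and number) changes are given with it. Replicates within a group were separate pools per the labels. The labels give every array the same code, so no batch could be read from them. Alternatives were the groups in the model, the block, array weights, the prior, a filter on low values, the probe sets tested, array centring, quantile normalization, the background level and leaving out each pool. Protein sequences were not analysed here. Plots were made in Python 3.11.15 (matplotlib 3.10.9).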

Additional observations from a re-analysis of the deposited data

Results flagged for a closer look

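In 7 of 108 groups of 4 arrays checked (27 named subunits in 4 groups), 1 array stood apart from the other 3 by Dixon's ratio, where chance gives about 1 in 20, or 5.4. Kcna1 was 4.34 in citrus GFP-negative replicate 1 (others 3.46 to 3.58) and 5.60 in vehicle GFP-positive replicate 1 (others 4.44 to 4.56). Kcnmb3 was 13.07 in vehicle GFP-positive replicate 2 (others 13.54 to 13.58), still above every vehicle GFP-negative array. Kcne3 was 3.56 in citrus GFP-positive replicate 3 (others 2.59 to 2.70). Kcnh4 was 12.57 in citrus GFP-negative replicate 3 (others 13.26 to 13.36). Kcnip4 was 12.96 in vehicle GFP-negative replicate 2 (others 12.67 to 12.71). Kcnk9 was 3.97 in vehicle GFP-negative replicate 3 (others 3.32 to 3.37).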

How the results depend on the processing

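No call of a subunit between gates changed direction under any alternative run. The counts with vehicle (5 higher, 3 lower) became 24 higher when arrays were centred on their overall median, 3 higher and 7 lower with arrays centred on mature OSN markers, 6 lower with the replicate block, and 0 lower with the filter on low values, which left 18 subunits to test. With citrus (11 and 6) they became 46 higher with median centring, 4 higher and 12 lower with mature OSN centring, and 0 lower with the filter. No subunit called lower in either comparison was above background on any array. The filter therefore removed all of them before the test, and its lower counts say nothing about those calls. Centring moved the median difference of all probe sets by 0.28 and -0.30 with vehicle and by 0.33 and -0.34 with citrus, and all probe sets were then called higher 7080 and lower 1555 times, or 522 and 3113, with vehicle, and 9128 and 1711, or 537 and 3330, with citrus, in place of 1771 and 1952, and 1457 and 2112. Leaving out 1 pool gave 2 to 5 higher and 1 to 4 lower with vehicle, the fewest higher (2) without vehicle replicate 3 and the fewest lower (1) without vehicle replicate 2. Calls over all probe sets fell there too, to 1255 higher without vehicle replicate 3 and 1539 lower without vehicle replicate 2. With citrus it gave 5 to 12 higher and 3 to 6 lower, the fewest higher (5) without citrus replicate 4 and the fewest lower (3) without citrus replicate 3. All probe sets then gave 843 higher calls without citrus replicate 4 and 1804 lower calls without citrus replicate 3. Where counts fell without a pool, fewer arrays entered the model; the cause was not tested further. The quantile-normalized counts were 7 and 3, and 15 and 6, beside 2371 and 1861, and 2340 and 1984, of all probe sets. With the 99th percentile of negative controls as background, 4, 2, 5 and 3 subunits were above it in vehicle GFP-positive, vehicle GFP-negative, citrus GFP-positive and citrus GFP-negative cells. The comparisons of citrus with vehicle and the effect on the gate gave 0 calls of subunits in every alternative. The pool block changed no calls of subunits beyond those given with the results. Citrus and vehicle arrays of one number are different pools. Within a gate their deviations correlated at -0.01 to 0.35 (median 0.18), and those of other numbers at -0.37 to 0.21 (median -0.07). Citrus and vehicle arrays of one number were taken to share only the number, and what else they share was not tested. A block for the number left the comparisons of citrus with vehicle at 0 calls of subunits. No symbol had several probe sets, so no other probe set could stand for one. Signal limits these results: 70 subunits were above background on no array.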
